A study of Danio rerio with 7 samples.

Results

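The early clusters described here are 150 of the 433380 features of a zebrafish (Danio rerio) tail fin RNA sequencing series that stood high at 24 h post amputation at both edges of the cut and low in every other library. They were selected on their measured values. For each cluster the lower of the 2 values at 24 h had the highest of the other 5 values subtracted from it, on the log2(FPKM + 1) scale, and the 150 clusters with the largest result, called the score here, were taken. FPKM, the unit of the authors' table, counts sequenced fragments relative to feature length and library size. Because all 7 libraries entered the score, the height at 24 h and the low level elsewhere are descriptions of the choice, and no test is given for them.

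Total RNA came from tail fin, and each group held 1 library. Besides the control, whose labels name neither an edge nor a time, there was an anterior cut edge (ACE) and a posterior cut edge (PCE) library at 24, 48 and 72 h. The labels state no strain, age, sex, manner of cutting or number of fish per library. With 1 library per group no difference has a replicate check, so values are given without an SD or a p-value. In bulk tissue, fewer cells of a type and less RNA per cell cannot be told apart.

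The tail fin of the zebrafish grows back after it is cut. Epidermal cells first migrate over the wound and form a wound epidermis, and beneath it cells of the stump lose part of their specialised state, gather and divide as a blastema, from which bone rays, vessels and connective tissue are rebuilt. Genes of the wound response and of blastema formation are switched on early and many of them are switched off again as outgrowth begins. The title of the series names calcineurin, a phosphatase activated by calcium and calmodulin that is the target of the drugs cyclosporin A and FK506 and has been linked to the control of fin growth.

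The deposited table identifies features only as clusters with a first and a second number. None of the early clusters (0 of 150) was found among the zebrafish identifiers and names of the reference tables. The same held for all 433380 clusters, of which 0 were found. No gene name, role, position or sequence can thus be attached to a cluster here, and marker genes of cell types could not be examined. The account therefore concerns levels, their balance between the edges and their course over time. A transcript and its near-identical copies may have been counted in different clusters, which leaves single levels uncertain.

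Library depth was estimated from the steps of low FPKM values, relative to 1 for the control, and ran from 0.736 in PCE 24 h to 1.14 in ACE 72 h. How many fragments stand behind an FPKM value is not known, since cluster lengths were not used here. PCE 24 h stood apart from the other libraries: 33560 clusters were above 0 in it alone and held 29.3% of its summed FPKM, against 1.96% to 7.45% elsewhere. Its part in the results was not tested. A choice of clusters made without it is given below, but the edge difference and the shares left in PCE still use it there.

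At 24 h the early clusters spanned a wide range of levels. In ACE 24 h the lowest stood at 10.3 FPKM, the median at 28.5 FPKM and the highest at 1407 FPKM. In PCE 24 h the corresponding values were 10.6, 80.9 and 5010.4 FPKM. Both medians lay well above those of the other libraries, which were 0 in the control and in each 48 and 72 h library. Summed over the 150 clusters, FPKM was 12400 in ACE 24 h and 35526 in PCE 24 h, which is 0.599% and 1.18% of the total of each library. In the other 5 libraries the summed FPKM was 13.6 to 67.9, at most 0.00265% of a library's total.

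**Figure D1:**
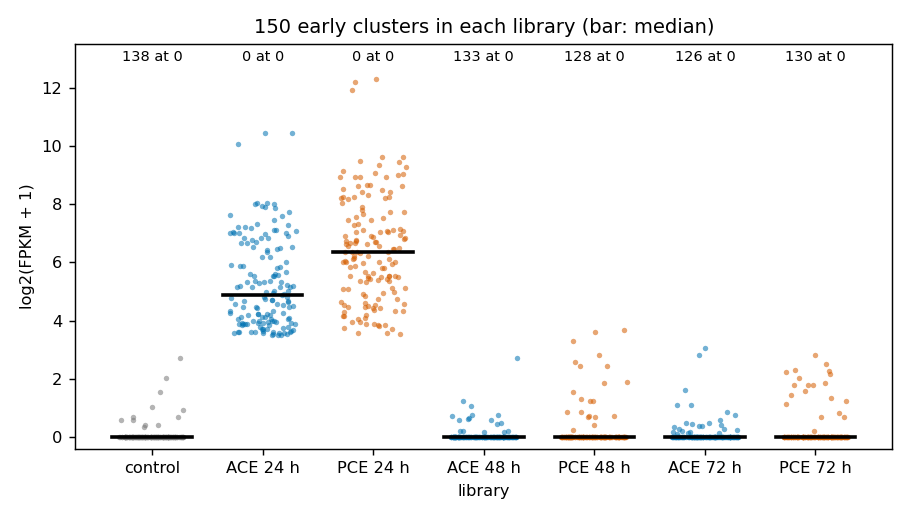
Level of each of the 150 early clusters as log2(FPKM + 1) in the 7 libraries, with a bar at the median and the number of clusters listed at 0 above each column. In the other 5 libraries 126 to 138 of 150 clusters are listed at 0, and the highest of their points, 11.8 FPKM in PCE 48 h, lies just above the lowest points of 24 h.

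The highest score belonged to Cluster-85539.2, at 1407 FPKM (ACE) and 5010.4 FPKM (PCE) at 24 h. Cluster-85539.1 was next, at 1386 FPKM (ACE) and 4739.5 FPKM (PCE) at 24 h. The third cluster in rank shares their first number, which has 3 clusters in the whole table, and stood at 1079 and 3859 FPKM. All 3 were listed at 0 in the control and at 48 and 72 h at both edges, and their PCE to ACE ratios in FPKM were close to each other, at 3.56, 3.42 and 3.58.

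The levels of the next clusters in rank were several fold lower. The cluster ranked 4 stood at 259 FPKM (ACE) and 617 FPKM (PCE) at 24 h, with 0.36 FPKM in ACE 72 h as its only other value above 0. The cluster ranked 5 stood at 176 FPKM (ACE) and 295 FPKM (PCE) at 24 h, and was listed at 0 elsewhere. Scores ran from 10.46 down to 3.50, with a median of 4.30, and 44 clusters had a score over 5.

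The lower bound of the set cut through a continuous series of values. Just inside it lay Cluster-118330.212755, at 10.4 FPKM (ACE) and 27.6 FPKM (PCE) at 24 h, and Cluster-33484.0, at 10.3 and 32.9 FPKM. The first cluster outside stood at 10.3 and 37.3 FPKM, and the next at 10.1 and 17.8 FPKM. All 4 were listed at 0 in the other 5 libraries, and nothing in their levels separates the last clusters inside from the first outside.

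Over the whole table, 1931 of 433380 clusters (0.446%) had both 24 h libraries above all others by at least 1 on the log2 scale. The same rule for the other times gave 2182 clusters at 48 h and 893 at 72 h. A score of at least 3 was reached by 215 clusters at 24 h, 190 at 48 h and 78 at 72 h. A score over 0 was reached by 9278 clusters at 24 h, 12156 at 48 h and 5627 at 72 h. On the deposited values and at the bounds of 1 and 3, such clusters were about as numerous for 24 as for 48 h. At a score over 0 they were more numerous for 48 h. They were fewest for 72 h at each of these bounds. These counts were not repeated with other scalings. PCE 72 h had the fewest clusters above 0 of the 7 libraries, at 96680, and a relative depth of 0.770. The part of this library in the lower count at 72 h was not tested.

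The balance between the edges at 24 h leaned to the posterior side. PCE was higher than ACE in 132 of the 150 clusters and ACE was higher in 18. The PCE minus ACE difference had a median of 1.33 on the log2(FPKM + 1) scale, with quartiles of 0.69 and 1.77, and the median ratio of the deposited FPKM was 2.57. By at least 1 on that scale, 98 clusters were higher in PCE and 4 were higher in ACE, while 48 differed by less. The score took the lower of both values and so treated the edges alike, but both values entered it. With a mean of at least 50 FPKM over the 7 libraries required, the 150 clusters chosen anew had a median difference of 0.51, with 52 higher in PCE. That set shared 33 with the early clusters, and these 33 had a median of 1.59, with 30 higher in PCE and 0 higher in ACE by at least 1. Early clusters were low outside 24 h, so these 33 met the bound through the 24 h values that make up the balance. Nothing about the balance is therefore read from them.

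Clusters that met a common lower bound at 24 h gave a yardstick. In all, 8085 clusters, the 150 among them, had at least 10 FPKM in both 24 h libraries, a bound chosen after the levels of the early clusters were seen. Their PCE minus ACE difference had a median of -0.11 on the log2 scale, with 12.8% higher in PCE and 14.2% higher in ACE by at least 1. For the early clusters these shares were 65.3% and 2.67%. Differences from 1 to under 2 were found in 80 of the 150 early clusters, against 9.93% of the 8085. Both 24 h values entered the score, so this comparison is a description.

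**Figure D2:**
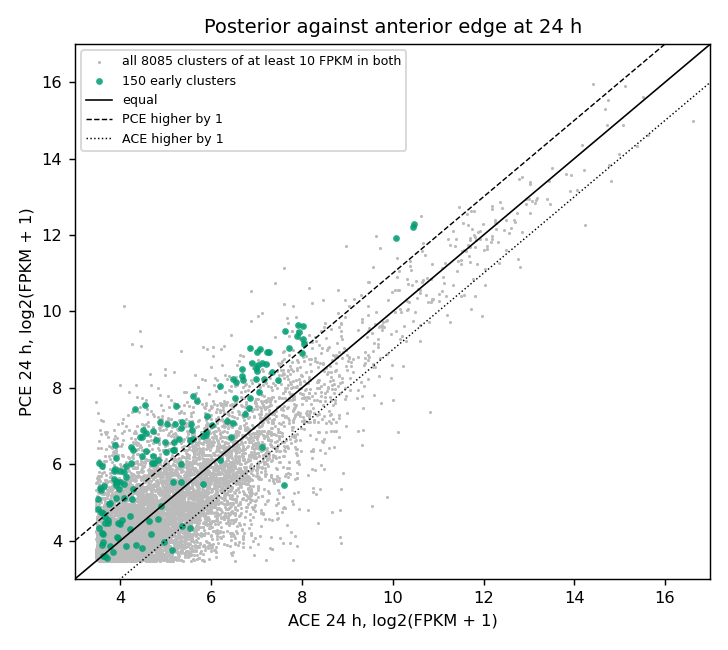
PCE 24 h against ACE 24 h, each as log2(FPKM + 1), for all 8085 clusters of at least 10 FPKM in both libraries (grey) and the 150 early clusters (green), with lines for equal levels and for a difference of 1 either way. Of the early clusters 98 lie on or above the dashed line and 4 on or below the dotted line.

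Rescaling the libraries shifted the balance of the early clusters and of the 8085. With median-of-ratios scaling the median difference of the 8085 clusters shifted by 0.23 and became 0.12, and that of the early clusters became 1.56, with 110 higher in PCE and 2 higher in ACE by at least 1. With quantile normalization the 8085 shifted by -1.15 to a median of -1.26. The early clusters then had a median of 0.35, with 44 higher in PCE and 23 higher in ACE by at least 1. The count of early clusters higher in PCE thus depends on the scaling. Relative to the median of the 8085, the early clusters stood 1.44 higher in PCE as deposited and 1.62 higher with quantile normalization. Median-of-ratios scaling multiplies a library by 1 factor and so leaves this gap nearly as it was. Both 24 h values entered the score, and the bound of the 8085 was chosen after the early clusters were seen. The gap is therefore a description, and nothing further is read from it.

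The lean to PCE was found along the whole ranking and was less uniform at its end. Among the clusters ranked 1 to 50 the median difference was 1.49, with quartiles of 0.95 and 1.76, and 37 were higher in PCE by at least 1. Among those ranked 51 to 100 the median was 1.42 and 36 were higher by as much. In the last 50 the median was 1.05, with quartiles of 0.13 and 1.62, and 25 were higher by as much. None of the first 50 was higher in ACE by at least 1 (0 of 50), and 2 were in each of the later groups of 50.

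The extremes of the balance were clusters of moderate level. Cluster-58754.0 had the largest difference towards PCE, with 19.0 FPKM (ACE) and 175 FPKM (PCE) at 24 h and 0 listed elsewhere. Cluster-118330.194412 followed, with 22.2 FPKM (ACE) and 187 FPKM (PCE) at 24 h, 0.71 FPKM in ACE 72 h and 0 listed in the rest. In both, PCE exceeded ACE by more than 8-fold in FPKM, at ratios of 9.19 and 8.45.

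The opposite balance was rare. Cluster-118330.191268 had 194 FPKM (ACE) and 43.1 FPKM (PCE) at 24 h, with 2.64 FPKM in PCE 72 h and 0 listed in the rest. Cluster-118330.63128 had 34.3 FPKM (ACE) and 12.4 FPKM (PCE) at 24 h, and was listed at 0 elsewhere. Their differences were -2.15 and -1.40 on the log2 scale.

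Levels in the 2 libraries went together across the early clusters, with a Pearson's r of 0.872 and a Spearman's rho of 0.820 over 150 clusters on the log2 scale. Over the 8085 clusters of at least 10 FPKM in both 24 h libraries Pearson's r was 0.814. These are descriptions across clusters, which share their libraries and were chosen on both values.

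Sets taken by the same score for the other times gave a second yardstick. The 150 clusters highest at 48 h only had a median PCE minus ACE difference of 0.42 at 48 h, with 45 higher in PCE and 7 higher in ACE by at least 1. Of the clusters with at least 10 FPKM in both 48 h libraries, 6.75% were higher in PCE and 5.96% in ACE, with a median of -0.05. The 150 highest at 72 h only had a median of 0.89 at 72 h, with 67 and 6. Of the clusters with at least 10 FPKM in both 72 h libraries, 13.3% were higher in PCE and 25% in ACE, with a median of -0.30. A lean to PCE was therefore present in all 3 sets and was largest at 24 h on the deposited values. With quantile normalization of the same clusters the medians were 0.35, 0.07 and 0.90 for 24, 48 and 72 h, and with median-of-ratios scaling 1.56, 0.63 and 1.54, so the order of 24 and 72 h depends on the scaling. The sets were chosen on these libraries, and their difference was not tested.

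**Figure D3:**
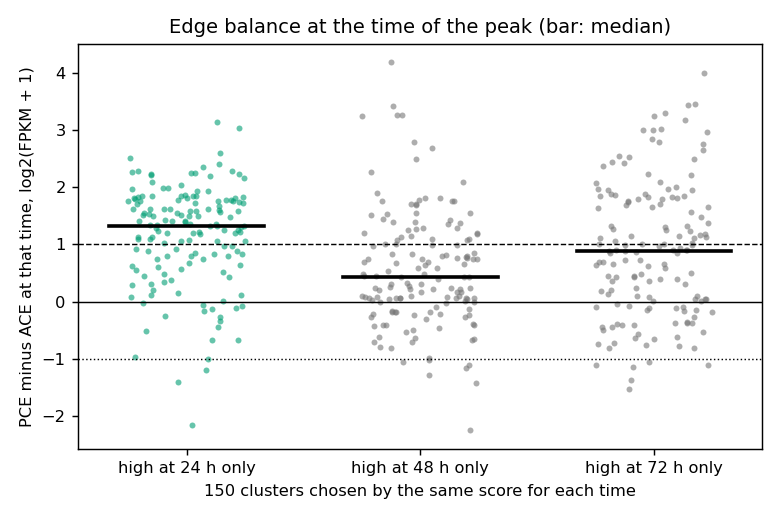
PCE minus ACE difference at the time of the peak, on the log2(FPKM + 1) scale, for the 150 clusters chosen by the same score for 24, 48 or 72 h, with a bar at each median. The medians are 1.33, 0.42 and 0.89, and the solid, dashed and dotted lines mark 0, 1 and -1.

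By 48 h little of the early level was found. In ACE 48 h 133 of the 150 clusters were listed at 0, and in PCE 48 h 128 were. The median cluster had 0% of its 24 h FPKM at either edge. The summed FPKM in ACE was 12400 at 24 h and 13.6 at 48 h, so 0.110% was left, and in PCE it was 35526 and 67.9, so 0.191% was left. Clusters of at least 10 FPKM in both 24 h libraries had a median of 93.5% left in ACE and 91.6% in PCE. Of these 8085 clusters, 297 were listed at 0 in ACE 48 h and 468 in PCE 48 h. That contrast is what the score asked for, and nothing is read from it.

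At 72 h the picture was the same. In ACE 72 h 126 clusters were listed at 0 and 0.190% of the summed FPKM of 24 h was present, and in PCE 72 h 130 were listed at 0 and 0.137% was present. Of the 8085 clusters of at least 10 FPKM in both 24 h libraries, 249 were listed at 0 in ACE 72 h and 606 in PCE 72 h. Their median share left was 80.1% in ACE and 61.0% in PCE. The score asked for low levels at 72 h, so nothing is read from this contrast. The first 3 clusters in rank made up much of the 24 h sums and were listed at 0 later. Without them ACE had 0.160% left at 48 h and 0.277% at 72 h, and PCE had 0.310% and 0.223%.

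Where a cluster was above 0 at 48 h, little of its 24 h level was found. Among the 17 clusters above 0 in ACE 48 h the median share left was 0.496% of the 24 h FPKM, and the highest was 4.85%. Among the 22 above 0 in PCE 48 h the median was 0.644% and the highest 2.27%. None of the 150 kept 5% or more of its 24 h FPKM at 48 h at either edge (0 in ACE and 0 in PCE). Of the 8085 clusters of at least 10 FPKM in both 24 h libraries, 7726 in ACE and 7493 in PCE kept as much. The score asked for low values at 48 h and so limits the share that an early cluster could keep. Nothing is read from these counts. With samples 24 h apart, the time within that interval at which the lower levels were reached cannot be told.

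**Figure D4:**
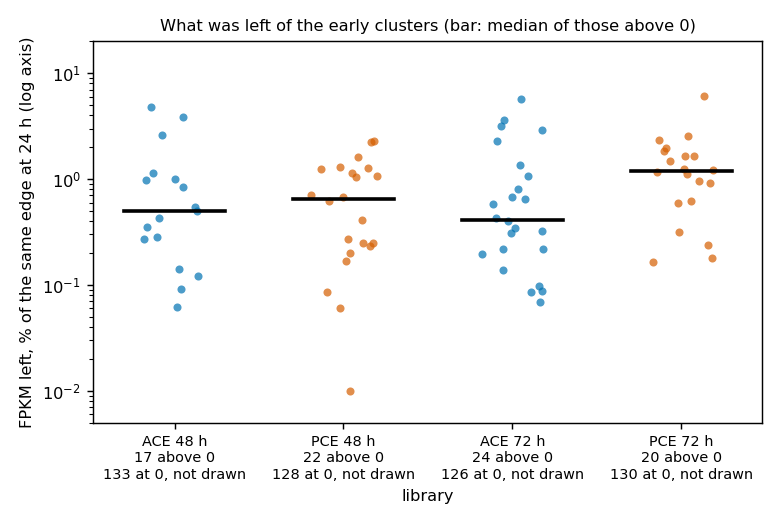
FPKM at 48 and 72 h as a percent of the FPKM at 24 h at the same edge, on a log axis, for the early clusters above 0 in that library, with a bar at their median. The 17 to 24 points per library lie at 6.13% or less, and the number of clusters listed at 0, which are not drawn, is given under each column.

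A few clusters held small remainders. Cluster-118330.195254 had the largest mean share left at 48 h, with 114 FPKM (ACE) and 527 FPKM (PCE) at 24 h, 5.52 FPKM in ACE 48 h, 1.07 FPKM in the control and 0 listed in the other 3. Cluster-118330.8779 had 28.9 FPKM (ACE) and 29.2 FPKM (PCE) at 24 h and 1.11 FPKM in ACE 48 h, and was listed at 0 in the rest. Each was above 0 at 48 h at the anterior edge only.

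At 72 h the largest mean share belonged to Cluster-118330.191268, named above, with 6.13% of its 24 h FPKM in PCE. Cluster-118330.245322 came next, at 107 FPKM (ACE) and 159 FPKM (PCE) at 24 h and 6.08 FPKM in ACE 72 h, which is 5.69% of its ACE 24 h value. It was listed at 0 in the other 4 libraries, 48 h included, so its value at 72 h stands in 1 library alone.

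Remainders showed no common course from 48 to 72 h. In ACE, 17 clusters were lower at 72 than at 48 h and 18 were higher. In PCE, 18 were lower and 17 higher. Most of these were above 0 at 1 time only. In ACE 11 were above 0 at 48 h only and 18 at 72 h only, and in PCE 15 and 13. Relative depth at 48 and 72 h was 0.914 and 1.14 in ACE, and 0.993 and 0.770 in PCE. The part of depth in these counts was not tested. Of the clusters above 0 at both times, 6 of 6 in ACE and 3 of 7 in PCE were lower at 72 h. At each edge 115 clusters were listed at 0 at both times.

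The control, whose value entered the score, was as low as the later libraries. It was above 0 for 12 of the 150 clusters, with a median of 0.62 FPKM among these. Of the clusters of at least 10 FPKM in both 24 h libraries, 92.3% were above 0 in the control. A low control was what the score asked for, so nothing is read from this count. Cluster-118330.188583 had the highest control value, 5.62 FPKM, against 147 FPKM (ACE) and 393 FPKM (PCE) at 24 h, with 4.91 and 2.46 FPKM at the posterior edge at 48 and 72 h and 0 listed in the later ACE libraries. Cluster-118330.194311 had 3.07 FPKM in the control, 71.9 FPKM (ACE) and 68.7 FPKM (PCE) at 24 h, and was listed at 0 at 48 and 72 h.

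In all, 98 of the 150 clusters were listed at 0 in all 5 libraries other than those of 24 h, against 1.25% of the clusters of at least 10 FPKM in both 24 h libraries. The score used these values, so nothing is read from this count. Of the other 52 clusters, 23 were above 0 in 1 further library, 18 in 2, 9 in 3, 1 in 4 and 1 in all 5. Their highest value outside 24 h had a median of 1.44 FPKM and reached 11.8 FPKM at most. In these 52 the lower 24 h FPKM was 43.5-fold the highest other FPKM at the median, and 15.2-fold at the least.

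The 98 clusters are the high end of a larger group. Across the table, 3347 clusters were above 0 in both 24 h libraries and listed at 0 in the other 5, most of them at low levels, with a median lower 24 h value of 0.69 FPKM. Without the 98, this group had a median PCE minus ACE difference of 0.82 on the log2 scale, and 1340 of 3249 clusters were higher in PCE by at least 1 against 62 higher in ACE. Of all 54527 clusters above 0 in both 24 h libraries, 19.0% were higher in PCE and 13.7% higher in ACE by at least 1, with a median of 0.09. At such low levels a fragment counts for more FPKM in the shallower library, and PCE 24 h had a relative depth of 0.736 against 1.14 for ACE 24 h. The part of depth in this difference was not tested.

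A further comparison chose clusters at 1 edge and read the other, so that the libraries read had no part in the choice. The 150 clusters in which ACE 24 h most exceeded the control, ACE 48 h and ACE 72 h were taken first. In 31 of them (20.7%) PCE 24 h exceeded PCE 48 h and PCE 72 h by at least 1, against 14.9% of all 433380 clusters, and 116 were listed at 0 in all 3 PCE libraries. The share listed at 0 in all 3 PCE libraries was 77.3%, against 51.9% of all clusters. Of the 34 that were above 0 in any PCE library, 31 (91.2%) had that peak at 24 h, against 30.9% of all clusters above 0 in any of them. In 32 of the 34 PCE 24 h itself, the library of the peak, was above 0.

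With the edges exchanged, 17 of 150 (11.3%) had the peak in ACE, against 4.70% of all clusters, and 126 were listed at 0 in all 3 ACE libraries. The share listed at 0 in all 3 was 84%, against 43.9% of all clusters. Here 17 of the 24 that were above 0 in any ACE library (70.8%) had the peak, against 8.38% of all clusters above 0 in any of them. In 20 of the 24 ACE 24 h itself was above 0. At both edges the shares among clusters above 0 thus rest on a filter met mostly through the library of the peak. They were not recomputed with other settings, and nothing is read from them. The backgrounds cover clusters of every level, and the chosen clusters were high at their own edge. The early clusters described here, of which 29 and 16 were among the 2 lists, are those seen at both. With 300 clusters chosen in place of 150 the shares were 13% and 7%, the former below its background. With a pseudocount of 0.1 in place of 1 the share in PCE was 14%, against 18.2% of all clusters. With median-of-ratios scaling the share in PCE was 20.7% against 14.8%, and with quantile normalization 22% against 10.2%. For a difference of at least 2 it was 20.7% against 9.53%. The share in PCE thus stood above its background or below it depending on the setting. The share in ACE stood above its background in each of these settings, most narrowly with a pseudocount of 0.1, at 10% against 8.97%. Given backgrounds of every level, nothing further is read from these shares.

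Leaving PCE 24 h out of the score changed the set almost wholly. The 150 clusters with the highest ACE 24 h over the 5 remaining libraries shared 16 with the early clusters and had a median PCE minus ACE difference of -6.70, with 134 higher in ACE by at least 1. Leaving out ACE 24 h gave a set that shared 13 with the early clusters, with a median of 8.12 and 149 higher in PCE. Choosing at a single edge sets the direction of these values, so nothing about the balance is read from them.

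Identifiers were not used by the score and gave a further description. A first number, 118330, covers 58.6% of all clusters, 99.0% of those of at least 10 FPKM in both 24 h libraries and 68.7% of the early clusters. The remaining 47 early clusters (31.3%) carried 45 other first numbers, against 1.01% of the clusters of at least 10 FPKM, or 82 in all. Of these 82 clusters 57.3% were early clusters, and of the 8003 with the number 118330 1.29% were. The bound of 10 FPKM was chosen after the early clusters were seen and all 150 met it, so nothing is read from these 2 shares. Against the whole table the early clusters carried 118330 more often, at 68.7% against 58.6%. Against the clusters of at least 10 FPKM they carried it less often, at 68.7% against 99.0%. The direction thus depends on the background, and the whole table covers clusters of every level. Nothing is read from either difference. The labels do not say what a first number means. In the sets of 150 clusters for the other times, 70 clusters of the 48 h set and 100 of the 72 h set carried 118330.

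The lean to PCE was present in both groups of identifiers. Early clusters with the number 118330 had a median difference of 1.36, with 71 of 103 higher in PCE by at least 1. Those with other numbers had a median of 1.12, with 27 of 47 higher by as much. The 35 clusters of at least 10 FPKM with other first numbers that were not early clusters had a median of 0.32, and 6 of them were higher by as much. The score, which used both 24 h values, separated these 35 from the early clusters, and the bound was chosen afterwards. Nothing is read from this contrast.

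Of the 45 other first numbers, 35 belonged to a single cluster of the table and the largest held 6. The 19 clusters that shared such a number with an early cluster without belonging to the set stood at 12.8 FPKM or less in every library, and 1 of them had a score of at least 1, at 1.78 FPKM (ACE) and 10.2 FPKM (PCE) at 24 h. Of the 19, 3 were above 0 in both 24 h libraries and 6 were listed at 0 in all 7.

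Within 118330 some early clusters had neighbouring second numbers. Of 103, 27 had another early cluster within 5 numbers. The same count was not made for other clusters of 118330, so nothing is read from it. The densest run held 10 early clusters within the 21 consecutive numbers from 195248 to 195268. It was found by searching the early clusters themselves for the fullest stretch, so its density is a description of that search. In ACE 24 h these 10 clusters stood at 20.5 to 261 FPKM with a median of 120.3 FPKM, and in PCE 24 h at 94.6 to 790 FPKM with a median of 382 FPKM. Their PCE minus ACE differences lay between 0.97 and 2.27 with a median of 1.56. Outside 24 h none of the 10 exceeded 8.92 FPKM.

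**Figure D5:**
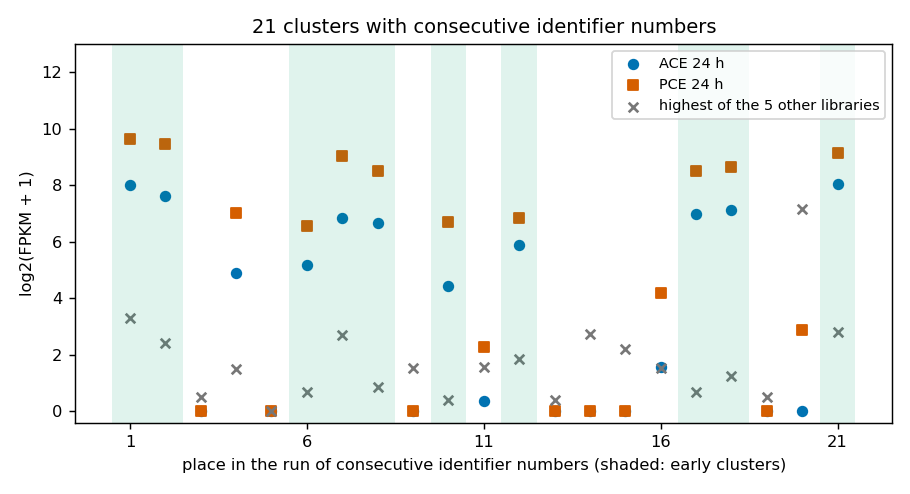
Levels as log2(FPKM + 1) in ACE 24 h, in PCE 24 h and in the highest of the other 5 libraries for the 21 clusters with consecutive second numbers in the densest run, with the 10 early clusters shaded. In each shaded cluster PCE 24 h lies above ACE 24 h, and both lie above the cross.

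The other 11 clusters of the run were mixed. In 7 of them both 24 h libraries were listed at 0. A single one reached 10 FPKM in both, at 29.1 FPKM (ACE) and 128 FPKM (PCE) at 24 h and 1.80 FPKM in PCE 48 h, and it missed the set with a score of 3.43. Cluster-118330.195267 instead stood highest in PCE 72 h, at 143 FPKM. It had 6.32 FPKM in PCE 24 h, was listed at 0 in ACE 24 h and had a score of -7.17. Over all clusters within 5 numbers of an early cluster of 118330 that were not in the set, 31 of 863 (3.59%) had a score of at least 1, against 0.446% of all clusters. All 863 carried 118330, whereas the 0.446% covers every first number. The share within 118330 was not computed, so nothing is read from the difference. Whether clusters with neighbouring numbers share sequence or reads was not tested, and the labels do not say how the numbers were given.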

How the data were processed

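The table of 7 libraries holds FPKM values that the authors computed and deposited, 1 column per library. Trizol extraction and NEBNext Ultra library preparation are recorded per the labels' protocols. The tools listed per the submitters' processing notes are edgeR, HTSeq 0.9.1 and HISAT2 2.0.5, without their roles. Build, annotation and origin of the clusters were not given in the sources used here.

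From these values the score, log2(FPKM + 1) differences, shares left (a percent of FPKM, which keeps a true 0) and counts past a difference of 1 were computed with Python 3.11.15, numpy 2.4.6, pandas 2.3.3 and scipy 1.17.1, and plotted with matplotlib 3.10.9. No minimum level was set and no cluster was dropped. The log2(FPKM + 1) scale understates differences of low clusters. The choice and both scalings were run on simulated data. The planted clusters there stood far above the rest at 24 h, so their recovery was set in advance. Clusters near the lower bound of the set were not simulated. For quantile normalization only the equal library totals that it gives by design were checked. Relative depth came from the most frequent log2 ratio to the control among clusters at 0.1 to 0.6 FPKM in both libraries and above 0 in at most 4.

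The members and rules were chosen with earlier results of these data known. Named are the 2 clusters at each end of the score and of the edge difference, and the 2 with the largest share left at 48 h, at 72 h, and the highest control level. No test was run, since all 7 libraries entered the choice and each group held 1 library.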

Additional observations from a re-analysis of the deposited data

Results flagged for a closer look

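From 48 to 72 h the summed FPKM of the 150 early clusters moved in opposite directions at the 2 edges on the deposited values. In ACE it was 13.6 at 48 h and 23.6 at 72 h, a difference of 9.96. In PCE it was 67.9 and 48.8, a difference of -19.13. With median-of-ratios scaling of the same clusters, PCE had 0.172% of its 24 h sum at 48 h and 0.176% at 72 h. With quantile normalization it had 0.263% and 0.280%. In ACE these shares were 0.101% and 0.177% with the former, and 0.123% and 0.190% with the latter. The direction in PCE thus depends on the scaling. Each edge had 1 library per time, so the difference between the edges was not tested. A few clusters carried the sums, since 2 clusters held 7.42 and 6.08 FPKM of the ACE 72 h sum, and 3 held 11.8, 11.3 and 8.92 FPKM of the PCE 48 h sum. With 1 library per group, no library could be compared with others of its own group.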

How the results depend on the processing

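Of 153 recomputed values, 102 stayed within 1.5 times (on the log2 scale, within the log2 of 1.5) of those reported. Counts were compared relative to set size, so 164 of 300 clusters higher in PCE passed beside 98 of 150. The 102 include median shares left, in 10 (ACE) and 10 (PCE) comparisons at 48 h and in 12 and 10 at 72 h. These medians were 0 as reported and as recomputed, which follows from choosing clusters low outside 24 h. The total of 102 is therefore no measure of stability. Values outside the range of 1.5 times follow, and their cause was not tested except where the choice itself sets it.

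With a pseudocount of 0.1, 114 of the 150 clusters were chosen again, and the summed FPKM left at 48 and 72 h was 0.0490% and 0.0241% in ACE and 0.0267% and 0.0102% in PCE. With a mean of at least 50 FPKM required, 33 of the 150 were chosen again, and the median PCE minus ACE difference was 0.51, with 52 clusters higher in PCE by at least 1. The median share left was then 29.9% (48 h) and 26.9% (72 h) in ACE, and 22.0% and 17.2% in PCE, and that of the summed FPKM 24.9% and 26.7% in ACE and 36.9% and 21.4% in PCE. The 117 clusters that filled the other places had lower scores. The 33 alone had a median of 0% left at both edges and times, and at most 4.85% in any library. Low levels outside 24 h were what the score asked for, so nothing is read from these 33.

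With median-of-ratios scaling 2 clusters were higher in ACE by at least 1, for the same clusters and for those chosen anew. With quantile normalization of the same clusters the median difference was 0.35, with 44 higher in PCE and 23 higher in ACE. Chosen anew, the median was 0.52, with 45 higher in PCE. The median share left was 0.0215% in ACE and 0.0803% in PCE at 48 h and 0.171% in PCE at 72 h for the same clusters, and 0.0253%, 0.0803% and 0.169% for those chosen anew. The summed FPKM left in PCE at 72 h was 0.280% and 0.265%. This method gives values above 0 to clusters listed at 0.

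With 75 clusters 1 was higher in ACE by at least 1 and 0.0610% of the summed FPKM was left in ACE at 48 h. With 300 clusters 0.245% was left in ACE at 48 h and 0.215% in PCE at 72 h. Choosing 300 clusters at a single edge gave peaks at the other in 13% (PCE) and 7% (ACE).

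The next alternatives were chosen after seeing the data. Without PCE 24 h in the score the median difference was -6.70, with 11 clusters higher in PCE and 134 higher in ACE. The summed FPKM left was then 0.00128% (48 h) and 0.00249% (72 h) in ACE, and 0.00340% and 0% in PCE. Without ACE 24 h the median was 8.12, with 149 and 0 clusters, and 0.0285% and 0.0224% was left in ACE and 0.00236% and 0% in PCE. Both follow from asking for height at 1 edge only. Without the 3 clusters of highest level, 0.310% and 0.223% of the summed FPKM was left in PCE at 48 and 72 h.

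No paired analysis was possible because the results come from no test, and the edge balance at 24 h rests on 1 pair of libraries. Depth in fragments is unknown, so no limit of detection can be given for a cluster listed at 0.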
